A study of Drosophila melanogaster with 10 samples.

Results

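The 57 genes described here encode developmental regulators of Drosophila melanogaster that are known as targets of Polycomb repression, almost all of them transcription factors, with hh, a secreted signal, as the exception. They were listed by name, by a rule that uses no value of these arrays, although earlier results of these data were known. They were found among the 11982 genes that a probe set of a single gene represents. Retinal, neural and Hox genes were left out by the same choice. All 57 had such a probe set, 45 of them just 1 and 12 of them several, and the brightest over all arrays stood for the gene. They were divided by their best known role into 12 segmentation genes, 15 appendage genes, 8 T-box, GATA and other dorsal patterning genes, the 3 genes of the Iroquois complex, 9 gut and muscle genes and 10 head and nervous system genes.

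Polycomb repressive complex 2 trimethylates histone H3 at lysine 27 through its enzyme E(z), and Polycomb repressive complex 1 binds that mark and compacts the chromatin. The complexes are recruited in flies by Polycomb response elements, and they hold developmental regulators silent in cells where these were never switched on. Jarid2 is a substoichiometric partner of the first complex. Many of the target genes lie beside a paralogue and share regulatory DNA with it, as en does with inv and ara with caup. In the eye-antenna disc, the larval epithelium that forms the eye, antenna and head capsule, several of them are active in restricted domains, such as Dll in the antenna and the Iroquois genes in the dorsal eye.

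Log2 expression was measured on 10 1-colour arrays in 5 groups of 2. Of the whole-animal groups, each sample made from 20 third-instar larvae, the first was labelled wild type, the second carried the Jarid2 mutant allele, listed as Jarid2MB00996/TM3, and the third was titled E(z) RNAi with the construct UAS-E(z)-RNAi, although its genotype field reads wild type. The 2 disc groups were trypsin-dissociated cells of about 500 eye-antenna discs, separated by GFP fluorescence, labelled wild type or Jarid2 mutant. The sources used here name neither the RNAi driver nor the fluorescent fraction that was kept, nor whether the mutant animals still carried the balancer TM3. All flies were raised at 25 °C, and neither separate cultures nor separate crosses are stated, so p-values reflect how far these arrays differ from each other, and that difference may be technical.

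Jarid2 itself read 9.63 and 9.48 in control larvae, 4.19 and 4.26 in mutant larvae, 10.14 and 10.10 in control disc cells and 7.64 and 6.80 in mutant disc cells. E(z), in contrast, read 8.53 and 8.31 in control larvae and 9.25 and 9.56 on the arrays labelled E(z) RNAi, so no fall was read. The label could not be checked against the positions of the probes. Directions are therefore given for arrays that carry the label and not for a measured loss of E(z). Residual SDs had a median of 0.16 among larval arrays and 0.0978 among disc arrays, and each tissue was therefore fitted with its own spread in limma. One feature of the larval controls bears on every larval difference from control below. The first control array read above the second for 50 of the 57 genes, with a median gap of 0.31, against 60.2% of all probe sets. In mutant larvae the first array was above the second for 15 of the 57, against 57.1% of all probe sets. In the larvae labelled E(z) RNAi it was above for 29, against 38.8%.

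The deposited levels of the 57 genes separated the tissues far more than the perturbations did, as the plot of all arrays shows. prd, hkb, cad, ind and pdm2 lay below the lower quartile of the array on every disc array. None of the 57 did so on both arrays of a larval group, although hkb and ind did on 1 control array and 1 mutant array, lbe on 1 mutant array, and hkb and ss on 1 array labelled E(z) RNAi. For the 5 genes the disc level is near background and a fall towards it is a lower bound. Others lay little above the control disc quartiles of 4.22 and 4.20, such as lbe (4.28 and 4.26), slou (4.53 and 4.76) and fkh (4.70 and 4.83). The same limit may apply to them.

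**Figure D1:**
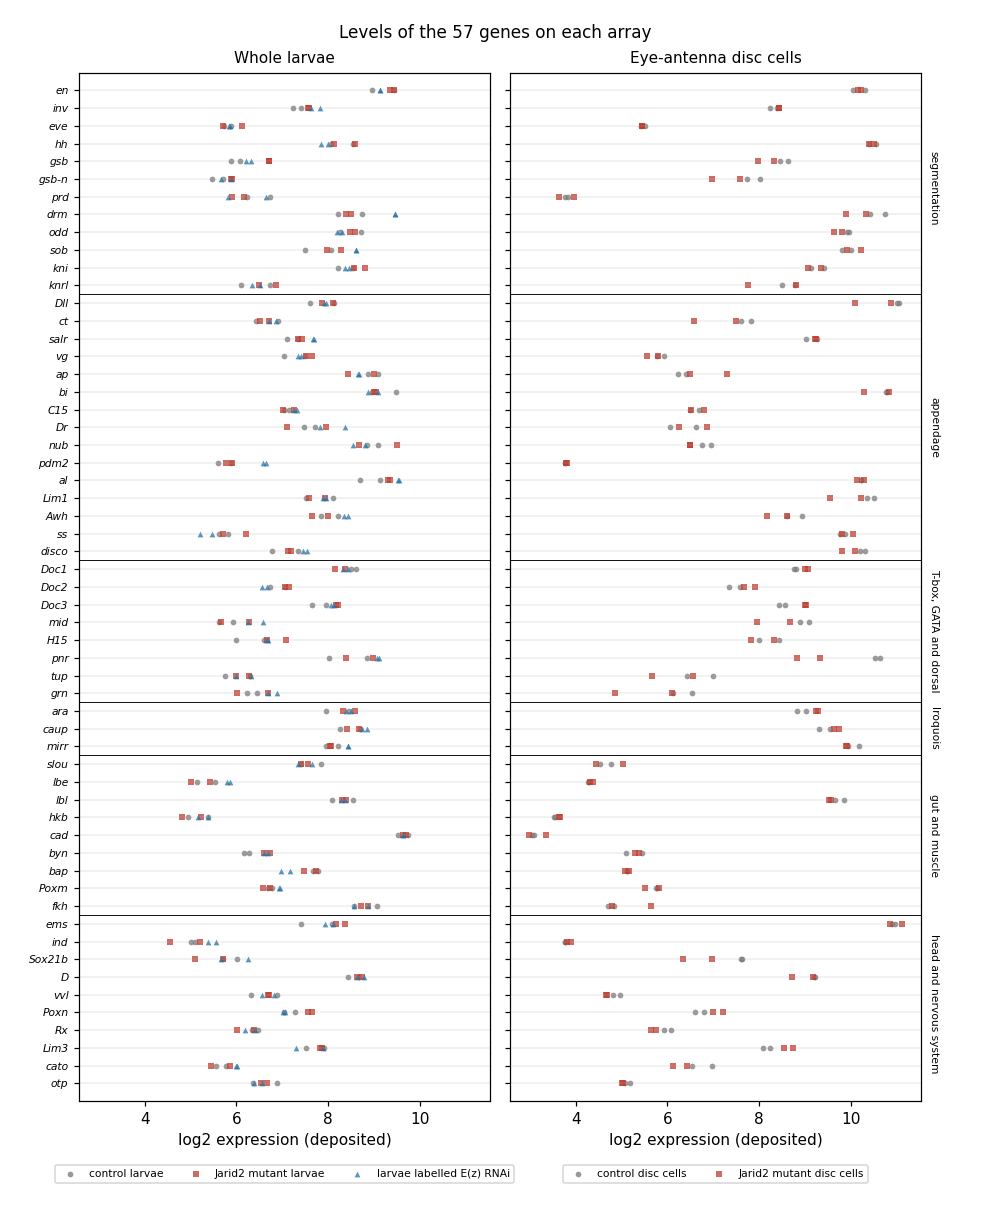
Log2 expression of the 57 genes, 1 symbol for each array, in larvae (left) and disc cells (right), with genes grouped by role. The symbols of one tissue mostly lie within a narrow span for a gene, while cad spans 9.52 to 9.73 on larval arrays and 2.98 to 3.36 on disc arrays.

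Control disc cells were set against control larvae to show where these genes are read. Of the 57, 32 were called higher and 21 lower at an adjusted p under 0.05 in limma, where 28.5% and 43.9% of all probe sets were called in those directions (72.4% in either). The members' median difference was 0.72, and that of all probe sets was -0.23. The split depended on scaling. After quantile normalization 42 were higher and 10 lower, against 51.9% and 24.6% of probe sets, with medians of 1.51 and 0.44, and after median centring 45 were higher and 5 lower, against 77.9% and 15.9%, with medians of 2.60 and 1.66. Under all 3 scalings 32 genes were called higher and 5 lower, and 14 of the 57 changed sign between scalings. Whole-animal and sorted-cell RNA were also prepared differently, which cannot be told apart from tissue, and in such bulk samples fewer cells of a type and less RNA per cell cannot be told apart either.

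Of the 15 appendage genes 9 were called higher and 6 lower. ss, a bHLH-PAS factor that specifies antennal identity, read 5.82 and 5.61 in control larvae and 9.86 and 9.76 in control disc cells, a difference of 4.10 ± 0.18 (SE, n = 2 arrays per group; limma adjusted p = 4.02e-07). disco, a zinc-finger gene of leg and antenna, read 7.34 and 6.77 in larvae and 10.30 and 10.20 in disc cells. Dll, the homeodomain gene of distal appendages, read 8.13 and 7.61 against 11.04 and 10.99. Lim1 and al encode homeodomain factors of the distal leg and antenna, and both were higher in disc cells. Lim1 read 8.11 and 7.51 in larvae and 10.50 and 10.34 in disc cells. al read 9.13 and 8.70 in larvae and 10.22 and 10.22 in disc cells, and salr, a spalt zinc-finger gene, read 7.35 and 7.11 against 9.01 and 9.26.

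The 6 appendage genes called lower as deposited were ap, nub, vg, pdm2, C15 (-0.51) and Dr (-1.25). bi, another appendage gene, was called higher under all 3 scalings (1.55 as deposited), as was salr. ap, the selector of the dorsal wing, read 9.09 and 8.86 in larvae and 6.41 and 6.22 in disc cells. nub, a POU factor of the wing hinge and pouch, read 9.09 and 8.85 against 6.95 and 6.75. vg, the wing selector cofactor, read 7.50 and 7.04 against 5.92 and 5.77. None of the 6 was called lower under every scaling. vg read 0.39 higher after quantile normalization (limma adjusted p = 0.0723). After median centring the adjusted p was 0.0574 for ap, 0.325 for nub and 0.578 for pdm2. After quantile normalization C15 was called higher (1.09), and Dr read 0.47 higher (adjusted p = 0.235). pdm2, the POU paralogue beside nub, read 5.87 and 5.60 in larvae and 3.77 and 3.76 in disc cells, near background there.

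Of the 12 segmentation genes 10 were called higher in disc cells and 2 lower, of which eve turned from -0.33 to 1.25 after quantile normalization. hh, the segment polarity signal, read 8.53 and 8.05 in larvae and 10.54 and 10.40 in disc cells. gsb, a paired-type homeodomain gene of segment polarity, read 6.08 and 5.87 in larvae and 8.63 and 8.45 in disc cells, and its neighbour gsb-n read 5.70 and 5.46 against 8.02 and 7.73. The odd-skipped family of zinc-finger genes, which mark segment and joint boundaries in the leg, were all higher in disc cells. drm read 8.73 and 8.22 in larvae and 10.74 and 10.42 in disc cells. sob read 8.07 and 7.50 against 10.00 and 9.80, and odd read 8.71 and 8.26 against 9.95 and 9.92. The en paralogue inv read 7.41 and 7.23 in larvae and 8.39 and 8.24 in disc cells. prd, the pair-rule founder of its class, was the segmentation gene lower under all 3 scalings, reading 6.22 and 6.74 in larvae and 3.76 and 3.83 in disc cells.

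Among the dorsal and T-box genes 5 were called higher and 0 lower. mid, a T-box gene of ventral leg fate, read 5.92 and 5.63 in larvae and 9.08 and 8.88 in disc cells. pnr, a GATA factor of dorsal epidermis, read 8.84 and 8.01 in larvae and 10.52 and 10.62 in disc cells. All 3 Iroquois genes, homeodomain factors of the dorsal eye and notum, were higher, and mirr was furthest apart, with 8.22 and 7.94 in larvae and 10.18 and 9.93 in disc cells.

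Gut and muscle genes made up 4 of the 5 that were lower under every scaling. As deposited 1 of the 9 was called higher and 8 lower, and after quantile normalization 3 and 5, with byn and Poxm turned to higher. cad, a homeodomain gene of the hindgut and the adult and larval intestine, read 9.52 and 9.73 in larvae and 3.10 and 3.04 in control disc cells, a difference of -6.55 ± 0.16 (adjusted p = 1.5e-08). fkh, a forkhead gene of gut and salivary gland, read 9.06 and 8.57 in larvae and 4.70 and 4.83 in disc cells. slou, a homeobox gene of muscle founders, read 7.84 and 7.41 against 4.53 and 4.76. The visceral mesoderm gene bap read 7.78 and 7.67 in larvae and 5.11 and 5.11 in disc cells. lbl, a ladybird homeobox gene, was the gut and muscle gene that read higher, with 8.53 and 8.08 in larvae and 9.84 and 9.66 in disc cells. hkb, an early gut zinc-finger gene, read 4.94 and 5.39 in larvae and 3.53 and 3.55 in disc cells, and its sign turned after median centring.

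Of the 10 head and nervous system genes 4 were called higher and 5 lower as deposited, but 7 higher and 1 lower after quantile normalization, and none was called lower under all 3 scalings. ems, the head gap homeodomain gene, read 8.09 and 7.41 in larvae and 10.95 and 10.90 in disc cells. vvl, a POU factor of tracheae and nervous system, read 6.88 and 6.32 in larvae and 4.81 and 4.96 in disc cells, and otp, a homeodomain gene of hindgut and brain, read 6.88 and 6.36 against 5.07 and 5.18. ind, a columnar gene of the embryonic nerve cord, read 5.02 and 5.10 in larvae and 3.76 and 3.77 in disc cells. The sign of vvl, otp and ind changed with scaling. Poxn and Rx were called in opposite directions, Poxn at -0.45 as deposited and 1.11 after quantile normalization and Rx at -0.40 and 1.25. Defining markers were set against the tissue labels. All 7 measured genes of the eye-antenna epithelium were called higher in control disc cells, with list means of 11.38 and 11.44 against 7.76 and 7.56 in larvae, and the 3 measured fat body genes were all lower. Of 11 haemocyte markers 7 were called higher and 1 lower in control disc cells, with means of 10.48 and 11.40 against 9.20 and 9.42 in control larvae. As deposited 28.5% and 43.9% of all probe sets were called in those directions. Neurons had 3 of 5 genes called higher and 0 lower, glia 2 and 2 of 6, and muscle 1 and 3 of 5. All 5 salivary gland genes, fkh included, and the 2 tracheal genes, vvl included, were called lower. After quantile normalization the epithelium had 7 called higher, fat body 3 lower, and haemocytes 6 higher and 1 lower. The tracheal genes then had 1 higher and 0 lower. The part of these markers in the tissue difference was not tested.

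**Figure D2:**
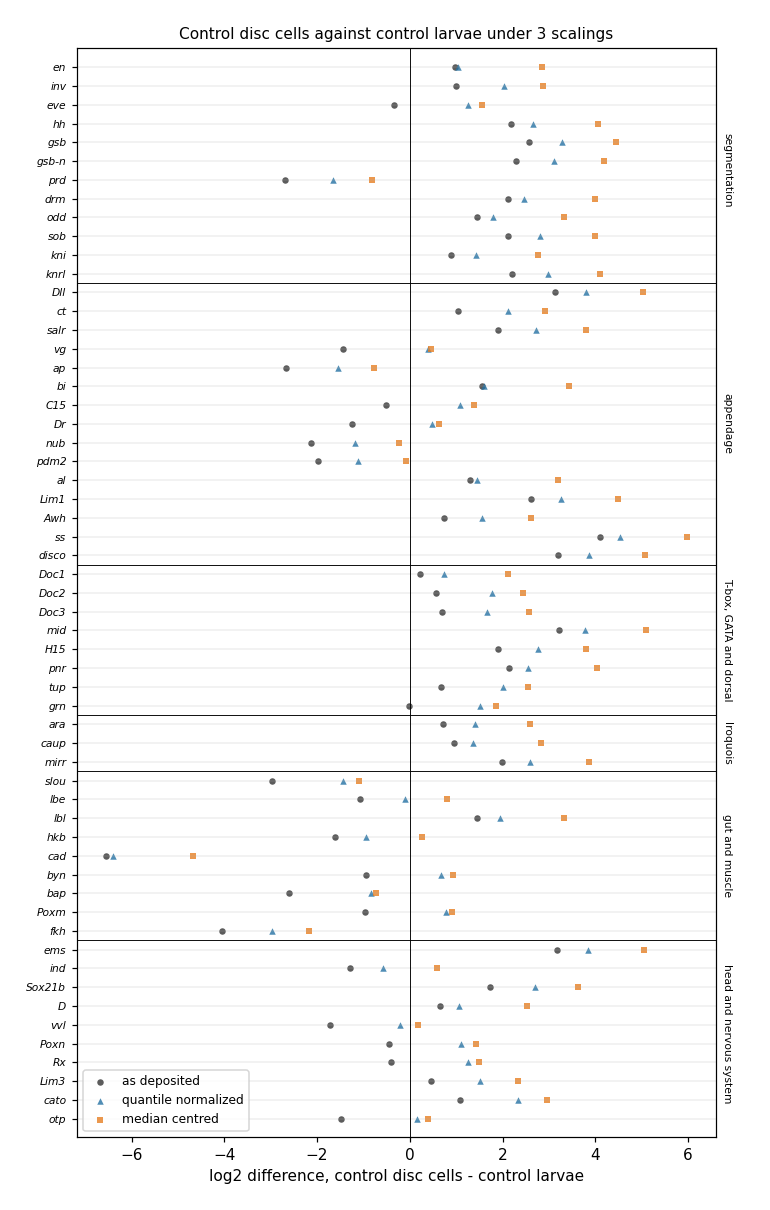
Log2 difference of control disc cells minus control larvae for each of the 57 genes, as deposited, after quantile normalization and after median centring, with genes grouped by role. Points to the right of 0 are higher in disc cells: ss, disco, ems, mid and Dll lie above 3 under every scaling, and cad lies below -4 under every scaling.

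The first perturbation contrast, mutant minus control larvae, asks whether regulators under Polycomb control are read differently in whole animals of the Jarid2 line. None of the 57 genes was called in the fit of the larval arrays, which called 0.821% of all probe sets. At an unadjusted p under 0.05 there were 4, and the unweighted fit of all 5 groups called 1 (1.34% of probe sets called higher), gsb. The members' median difference was 0.09, beside 0.01 for all probe sets, and 36 of 57 differences were above 0, against 52.5% of probe sets. The 95% interval of the difference lay within a 2-fold change either way for 51 of the 57 and stopped short of a 2-fold rise for 53. The genes whose intervals reached past 2-fold upwards were gsb, H15, pnr and ems.

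gsb read 6.08 and 5.87 in control larvae and 6.70 and 6.71 in mutant larvae. Both mutant arrays were above both controls, and the difference was 0.73 ± 0.13 (limma adjusted p = 0.104 among the larval arrays and 0.0418 in the fit of all 5 groups). Its neighbour gsb-n read 5.70 and 5.46 in controls, against 5.90 and 5.89 in mutants (0.32 ± 0.15, adjusted p = 0.67). byn, the T-box gene of the hindgut, read 6.28 and 6.16 in controls, against 6.73 and 6.61 in mutants, 0.45 ± 0.12 apart (adjusted p = 0.294). For Poxn, a Pax gene of poly-innervated sense organs, the controls stood at 7.27 and 7.04 and the mutants at 7.65 and 7.56 (0.45 ± 0.13, adjusted p = 0.351). In all, 12 genes had both mutant arrays above both controls and 3 had both below, where 21.2% and 14.6% of all probe sets showed those orders. Among the 12 were 4 segmentation genes and 3 of the dorsal and T-box group, and the 3 that were lower were Doc1, prd and Sox21b.

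The arrays labelled E(z) RNAi share their controls with the mutant larvae. Here too none of the 57 was called in the larval fit (0.900% of all probe sets were), while 10 had an unadjusted p under 0.05. The unweighted fit of all 5 groups called 3, with pdm2 and drm higher and bap lower, where it called 2.63% and 1.47% of probe sets in those directions, and with a weight for each tissue it called 1, pdm2 (1.66%). The median difference was 0.11 over the members and 0.06 over all probe sets, and 39 of 57 lay above 0, against 58.8%. For 49 of the 57 the 95% interval stopped short of a 2-fold rise.

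pdm2 read 5.87 and 5.60 in control larvae and 6.57 and 6.65 on the labelled arrays, a difference of 0.88 ± 0.14, or 1.84-fold (adjusted p = 0.0798 among the larval arrays, 0.00914 in the fit of all 5 groups). Its probe set was among the dimmest 30%, and the difference was 0.67 after quantile normalization (limma adjusted p = 0.142). drm read 8.73 and 8.22 in controls and 9.46 and 9.46 on the labelled arrays (0.99 ± 0.19, adjusted p = 0.111 and 0.0461). bap read 7.78 and 7.67 in controls and 7.16 and 6.96 on the labelled arrays (-0.66 ± 0.15, adjusted p = 0.145 and 0.0321). In each of the 3 genes the labelled pair did not overlap the controls. The paralogues beside these genes did not share one pattern: sob, next to drm but for 1 gene, differed by 0.83 ± 0.22 (adjusted p = 0.184), while odd differed by -0.24, and nub differed by -0.30 beside pdm2. By arrays, 23 genes had both labelled arrays above both controls and 7 had both below, where all probe sets gave 32.0% and 14.6%. The drm difference was 0.73 without the second control array and 1.24 without the first.

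**Figure D3:**
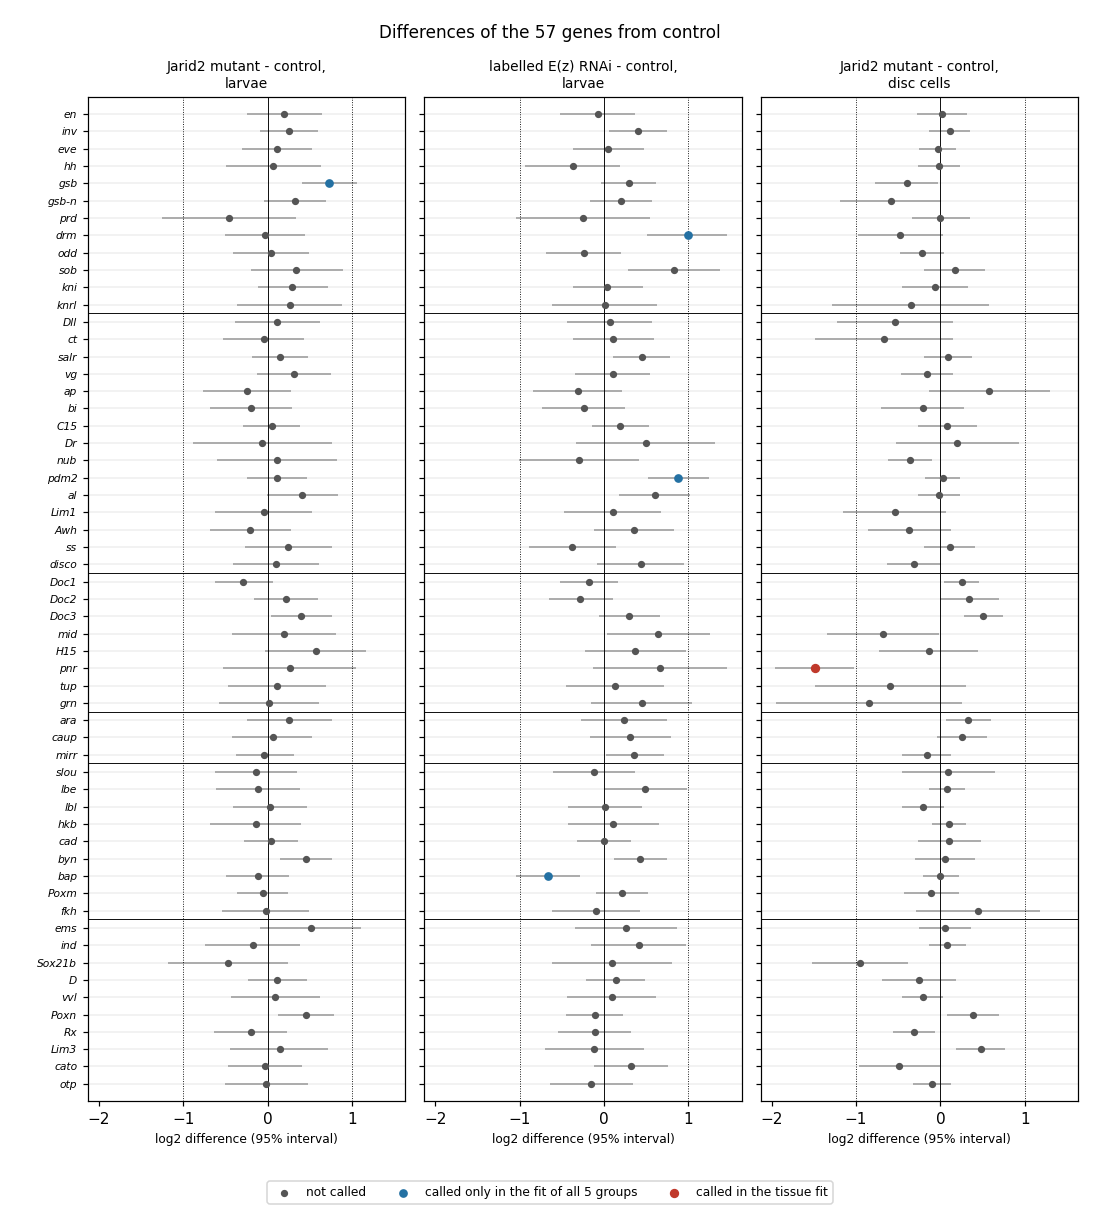
Log2 difference from control for each gene in mutant larvae, in larvae labelled E(z) RNAi and in mutant disc cells, with its 95% interval from the fit of that tissue; dotted lines mark a 2-fold change. pnr in disc cells, at -1.49, is the single gene called in a tissue fit, and gsb, drm, pdm2 and bap are called in the fit of all 5 groups.

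The mutant larvae and the larvae labelled E(z) RNAi were also compared directly, a contrast that shares its arrays with both comparisons above. None of the 57 was called in the larval fit (1.34% of all probe sets), 11 had an unadjusted p under 0.05, and the unweighted fit of all 5 groups called 4 (6.11%), or 1 with a weight for each tissue (2.97%). drm was lower in mutant larvae by 1.02 ± 0.19 (adjusted p = 0.0799 among the larval arrays, 0.0336 in the fit of all groups) and pdm2 differed by -0.77 ± 0.14 (adjusted p = 0.0806 and 0.0115). Poxn, with 7.65 and 7.56 in mutants and 7.06 and 7.02 on the labelled arrays, differed by 0.57 ± 0.13 (adjusted p = 0.125 and 0.0458), and bap by 0.54 ± 0.15 (adjusted p = 0.168 and 0.0485).

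The second probe set of mirr, chosen after its values were seen, gave a larger difference than any of the 57. It read 8.09 and 7.90 in control larvae, 7.07 and 7.39 in mutant larvae and 8.73 and 8.78 in the larvae labelled E(z) RNAi, so that the 3 groups did not overlap. Mutant minus labelled larvae was -1.52 (limma adjusted p = 0.0217), whereas the difference from controls was -0.76 in mutants (adjusted p = 0.151) and 0.76 in the labelled larvae (adjusted p = 0.123). The brighter mirr probe set read 8.05 and 8.03 in mutants and 8.44 and 8.44 on the labelled arrays, -0.40 apart (adjusted p = 0.24). The sources used here do not say which transcripts either probe set detects. A mean over both probe sets was also called (1.18% of all entries so tested).

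The same question was put to disc cells of the Jarid2 line. pnr fell in them relative to control disc cells, and it was the 1 gene of the 57 called in the disc fit, where 2.28% of all probe sets were called and 1.75% were called lower. It read 10.52 and 10.62 in control disc cells and 9.32 and 8.83 in mutant disc cells. The mutant pair lay wholly below the controls, and the difference was -1.49 ± 0.18, a 2.82-fold lower level (95% interval -1.96 to -1.03, limma adjusted p = 0.0298). It was also called in the unweighted fit of all 5 groups (2.61% of probe sets). The call was lost without the first control array (-1.54, adjusted p = 0.0788), without the second (-1.45, 0.121) and without the second mutant array (-1.25, 0.0702), with the direction kept. In larvae pnr read 8.84 and 8.01 in controls, against 8.39 and 8.97 in mutants, which overlap.

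No member rose in mutant disc cells by the disc fit, and 12 had an unadjusted p under 0.05. Doc3, a Dorsocross T-box gene, read 8.43 and 8.56 in controls, against 8.99 and 9.01 in mutants (0.51 ± 0.09, adjusted p = 0.0728). The other Dorsocross genes differed the same way, Doc2 by 0.34 ± 0.14 (adjusted p = 0.246) and Doc1 by 0.25 ± 0.08 (adjusted p = 0.186). In all 3 the mutant pair was above the controls, as it was for 37.1% of all probe sets. Sox21b, an HMG-box gene, read 7.62 and 7.60 in controls, against 6.98 and 6.34 in mutants (-0.95 ± 0.22, adjusted p = 0.113), and its neighbour D differed by -0.26. Lim3, a LIM-homeodomain gene of motor neurons, read 8.23 and 8.09 in controls, against 8.74 and 8.53 in mutants (0.48 ± 0.11, adjusted p = 0.119). Doc3 and Sox21b were called in the fit of all groups with a weight for each tissue, which called 6.93% of all probe sets.

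Over the 57, 20 had both mutant arrays below both controls and 13 had both above, where all probe sets gave 15.4% and 37.1%. The median difference was -0.03 over the members and 0.06 over all probe sets. Among the 20 were Dll, ct, mid, gsb, gsb-n, drm, odd, Lim1, grn and disco. Dll read 11.04 and 10.99 in controls, against 10.87 and 10.08 in mutants (-0.54 ± 0.27, adjusted p = 0.331), and its other probe sets gave -0.59 (adjusted p = 0.0735) and -0.58 (adjusted p = 0.0787). Lim1 gave -0.54 and, with its second probe set, -0.66 (adjusted p = 0.276 and 0.165). mid differed by -0.68 ± 0.25 (adjusted p = 0.225) and its paralogue H15 by -0.14. The second mutant array was the lower of its pair for 43 of the 57 genes, with a median gap of 0.24, and in control disc cells the second array was likewise the lower for 43, with a median gap of 0.13. Over all probe sets the first array was above the second for 44.2% in mutant and 54.7% in control disc cells. The Iroquois genes ara and caup stood 0.33 and 0.25 higher, and en, hh and al differed by 0.02, -0.02 and -0.02.

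Markers of other cells moved in the same disc comparison, and their part in these differences was not tested. Of 11 haemocyte markers 10 were called lower and 1 higher, where 1.75% and 0.533% of all probe sets were called in those directions. Their mean level was 10.48 and 11.40 in control disc cells and 6.10 and 6.45 in mutant disc cells, and srp was below the lower quartile on both mutant arrays. The marker that rose was lz, which is also a gene of the developing eye. Of 6 glial genes gcm rose by 1.15 ± 0.12 (adjusted p = 0.0216), and repo (-1.68 ± 0.16, adjusted p = 0.0162) and Gs2 fell, with list means of 8.67 and 8.50 in controls and 8.56 and 8.28 in mutants. Of 7 genes of the eye-antenna epithelium 1 rose, the eye determination gene so, by 0.83 ± 0.10 (adjusted p = 0.0296), and the list mean was 11.38 and 11.44 in controls and 11.92 and 12.06 in mutants. All 7 had both mutant arrays above both controls, an order that 37.1% of all probe sets showed. None of 5 neuronal genes was called, and none of 5 muscle genes was. The muscle mean was 5.95 and 5.66 in controls and 5.29 and 5.27 in mutants, and twi, which marks the myoblasts under the disc, differed by -2.23 ± 0.34 (adjusted p = 0.0541).

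**Figure D4:**
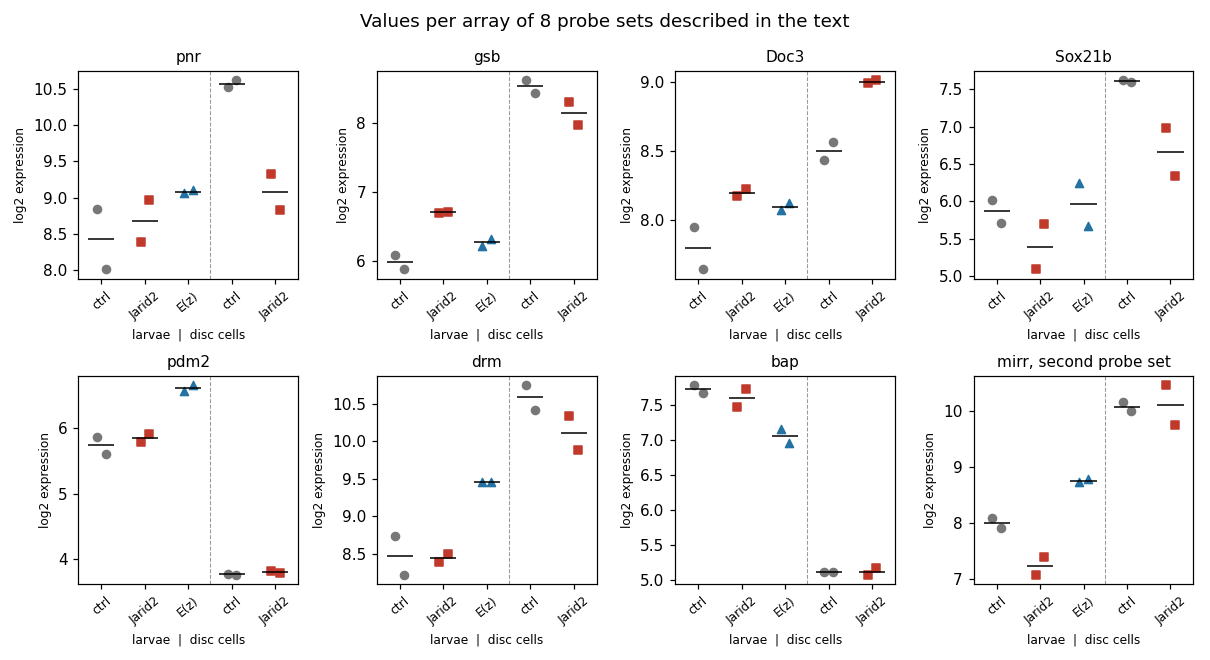
Log2 expression on each array for 7 genes and the second probe set of mirr, with a bar at each group's mean; larvae lie left of the dashed line and disc cells right of it, and each panel has its own vertical axis, which does not start at 0. The pnr panel shows the mutant disc arrays at 9.32 and 8.83 below the controls at 10.52 and 10.62, and the gsb panel shows mutants above controls in larvae and below them in disc cells.

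The difference between the Jarid2 effects in disc cells and in larvae was tested directly. It was called for gsb, 1 of the 57, where 2.88% of all probe sets were called and 2.00% were called lower. gsb, higher in mutant larvae by 0.73, read 8.63 and 8.45 in control disc cells and 8.31 and 7.98 in mutant disc cells (-0.40 ± 0.14, adjusted p = 0.215), and the effects differed by -1.13 ± 0.22 (limma adjusted p = 0.0396). For pnr the effects differed by -1.75 ± 0.40 (adjusted p = 0.0719), for Doc1 by 0.54 ± 0.15 (adjusted p = 0.14) and for gsb-n by -0.91 ± 0.35 (adjusted p = 0.319). The gsb call was lost when any one of 9 arrays was left out, the second mutant disc array included, and it held without the first mutant disc array (-1.29, adjusted p = 0.0184).

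Of the 57 genes 26 belong to 10 groups of neighbouring paralogues, which give 16 pairs of adjacent members with at most 4 other protein-coding genes between them, and none between 9 of the pairs. Between tissues 14 of the 16 pairs had differences of one sign as deposited, the exceptions being the pairs that lbl forms with bap and with lbe. That count depends on scaling. After quantile normalization C15 stood at 1.09, opposite in sign to its neighbours lbe (-0.10) and slou (-1.43). One sign was shared by 8 of the 16 pairs in mutant larvae, 10 in larvae labelled E(z) RNAi, 10 in mutant disc cells and 13 for the Jarid2 effect in disc cells minus that in larvae. These counts were not tested against each other or against the members' own split of signs. Between tissues 35 of the 57 differences were above 0 as deposited. For the difference between Jarid2 effects 40 of the 57 were below 0. In disc cells gsb and gsb-n differed by -0.40 and -0.59, ara and caup by 0.33 and 0.25, and knrl and kni by -0.35 and -0.06. Paralogues of similar sequence can share signal on an array, and the probe set names of en, inv, salr, vg, vvl and drm carry the maker's mark for probes that may detect several transcripts.

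Where a gene had several probe sets they did not always give one direction. For 7 of these 12 genes the sign differed between probe sets in mutant larvae, for 5 in larvae labelled E(z) RNAi, for 6 in mutant disc cells and for 2 between tissues. ct was the widest case, its 3 probe sets giving -0.67, -0.99 and 0.16 in mutant disc cells and 1.04, 1.72 and -1.23 between tissues. Those of ap gave 0.58 and 0.68 in mutant disc cells, with 7.29 and 6.50 on the mutant arrays of the brighter one against 6.41 and 6.22 in controls.

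Of 23 measured developmental genes that are also known as Polycomb targets, 0 were called in mutant larvae and 0 in larvae labelled E(z) RNAi by the larval fit, and 0 and 1 in the unweighted fit of all groups. In mutant disc cells 2 of the 23 were called, where 2.28% of all probe sets were. The nuclear receptor gene tll, of the embryonic termini and optic lobe, read 7.38 and 7.59 in controls, against 8.60 and 8.63 in mutants and rose by 1.13 ± 0.10 (adjusted p = 0.0151). zfh1, a zinc-finger gene of mesoderm and haemocytes, read 10.21 and 10.37 in controls, against 7.43 and 6.38 in mutants and fell by 3.38 ± 0.35 on the log2 scale (adjusted p = 0.0209). Of 16 measured genes of the Polycomb complexes, Jarid2 was the 1 called in mutant larvae and in mutant disc cells, and 0 were called in larvae labelled E(z) RNAi, where E(z) differed by 0.99 ± 0.16 (adjusted p = 0.078 among the larval arrays, 0.0139 in the fit of all 5 groups).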

How the data were processed

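Log2 expression values per probe set, as deposited by the authors, were used without further scaling; the submitters' processing notes name limma 3.4.3, and the sources used here do not state the background correction, normalization or summary. Of 18952 probe sets, 183 control sets were left out. The platform annotation gave 1 gene for 13647 of the remaining 18769, several for 402 and none for 4720. All 57 symbols matched the reference table, whose gene order alone was used. Larval arrays (6) and disc arrays (4) were fitted separately with limma 3.58.1 in R 4.3.3. Contrasts across tissues used all 10 arrays with a weight for each tissue (1.69 for discs, 0.705 for larvae). P-values were two-sided and adjusted by Benjamini-Hochberg over all probe sets, without a filter on low values, and called under 0.05. The fits were tested on simulated data. The number of arrays limits the precision.

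The members, lists, comparisons and separate fits were chosen with earlier results of these data known. Values per array were given for members called in the main fit or the fit of all 5 groups, up to 30 a comparison by p, or else the 3 with the smallest p. They were also given for some members outside that rule, among them gsb-n in mutant larvae and Lim3, Dll and ap in mutant disc cells. Replicate numbers did not pair the samples: same-numbered deviations correlated at -0.422 between control and mutant larvae, -0.212 between control larvae and those labelled E(z) RNAi, and 0.087 between disc groups. No sequences are given, as none were in the sources used here. Alternatives are described in the closing part.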

Additional observations from a re-analysis of the deposited data

Results flagged for a closer look

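gsb was the 1 member called for a difference between tissues in its Jarid2 effect: disc minus larvae was -1.13 (limma adjusted p = 0.0396). Of all probe sets 2.88% were called. Neither effect was called in the fit of its own tissue (adjusted p = 0.104 in larvae and 0.215 in disc cells). The call was lost after median centring and with an intensity trend. Both mutant arrays were above both controls in larvae and below both in disc cells. The groups of 2 arrays are too small to look for single outlying samples.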

How the results depend on the processing

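Counts of called members were 0, 0, 1 and 0 for mutant larvae, larvae labelled E(z) RNAi, mutant disc cells and the direct larval contrast. The shares of all probe sets called there were 0.821%, 0.900%, 2.28% and 1.34%. In the unweighted fit of all 5 groups the counts were 1, 3, 1 and 4, against 2.40%, 4.10%, 2.61% and 6.11%. With a weight for each tissue they were 0, 1, 3 and 1, against 1.57%, 1.66%, 6.93% and 2.97%. Means of all probe sets of a gene gave 1 in the direct contrast, mirr. The difference between Jarid2 effects (1 gene) gave 0 after median centring (gsb adjusted p = 0.109) and 0 with an intensity trend (0.055). Leaving out 1 array gave 0 in mutant larvae and 0 in larvae labelled E(z) RNAi, 0 to 1 in disc cells, 0 to 1 in the direct contrast, 0 to 2 for the difference between effects and 48 to 53 between tissues. The replicate block changed no count of calls by over 1.5 times (0, 0, 1, 0, 1 and 53 between tissues), and the crossed pairing of larval controls, added after seeing the data, gave 0 in both larval comparisons. Omitting the dimmest 30% of probe sets kept 52 members and left out prd, lbe, hkb, ind and pdm2. Between control disc cells and control larvae the sign turned for otp (0.15 after quantile normalization, 0.39 after median centring), vg (0.39 and 0.46), and, after median centring, vvl (0.17), hkb (0.26) and ind (0.59). In all 14 members changed sign. Of these eve, C15, byn, Poxn, Poxm and Rx were called lower as deposited (-0.33, -0.51, -0.94, -0.45, -0.96 and -0.40) and called higher after quantile normalization (1.25, 1.09, 0.67, 1.11, 0.79 and 1.25), and lbe, Dr and grn turned too. The cause was not tested. Differences towards levels near background are compressed, and 2 arrays a group leave wide intervals.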
